A study of Mus musculus with 6 samples.

Results

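The 8 genes described here encode apoptotic caspases, parts of the apoptosome, a caspase inhibitor and its antagonist. They are Casp2, Casp6, Casp8, Casp9, Apaf1, Cycs, Xiap and Diablo, chosen by name from a table of 16254 genes, and all 8 were among the 13498 genes with enough reads to be tested. Expression was measured by bulk RNA sequencing of poly(A)-selected libraries in cultured mouse eosinophils. Bone marrow of C57BL/6 mice, 6 to 12 weeks old, was grown into eosinophils with FLT3 ligand and stem cell factor and then IL-5. On day 12, 3 cultures received extracellular vesicles (EVs) at 5e+09 per ml, purified from TH2 cells restimulated through the T-cell receptor, and 3 cultures received unconditioned medium purified in parallel (Sham). All 6 were collected after 24 h. The sham medium had not passed over T cells, so vesicles and any other T-cell product that copurified with them cannot be told apart. The labels call the replicates biological without naming the animals, so the spread between them may in part be technical.

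Caspases are proteases that dismantle a dying cell. In the intrinsic route, BAX and BAK open the outer mitochondrial membrane, cytochrome c (Cycs) escapes and joins APAF1 (Apaf1) in a wheel-shaped complex, the apoptosome, which activates the initiator caspase-9 (Casp9). XIAP (Xiap) binds caspase-9 and some of the executioner caspases and blocks them, and SMAC (Diablo), released from the same mitochondria, displaces XIAP. Caspase-8 (Casp8) starts the route from death receptors, caspase-2 (Casp2) is activated on a separate platform called the PIDDosome, and caspase-6 (Casp6) is an executioner that cleaves nuclear lamins. Eosinophils are short-lived and die by apoptosis when survival cytokines such as IL-5 or IL-3 are withdrawn. Caspase activity is set largely by cleavage and binding of protein, which RNA levels do not show.

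Xiap was the 1 gene of the 8 called, and it was higher in EV-treated eosinophils, by 30.9% (95% interval 17.4% to 46.1%). Apaf1 and Casp9 were 17.3% and 15.6% higher and did not pass the threshold (edgeR, quasi-likelihood F test, p adjusted over all genes tested and required to be below 0.01). Casp2, Casp6 and Casp8 were 14.6%, 19.3% and 9.74% higher, also without a call. Cycs and Diablo, the mitochondrial proteins that promote caspase activation, changed by less than 3% on average, with intervals of -23.8% to 25.0% and -21.5% to 22.2%. Of all genes tested, 23.7% were called (12.1% higher and 11.6% lower), so 1 of 8 was no larger a share than in the background. The median log2 fold change of the 8 was 0.20, against -0.014 over all genes. No gene of the 8 was called lower (0 in edgeR, DESeq2 and limma, and 0 lower at an unadjusted edgeR p under 0.05, where 4 were higher). That looser cut takes in many genes: Casp2, with an unadjusted edgeR p of 0.0361, ranked only 5580 by p among the 13498 genes tested. None reached a 2-fold change, which 9.45% of all genes did together with the call. DESeq2 and limma each called 2 of the 8, both Xiap and Apaf1. Without EV replicate 1, or with libraries scaled by their totals alone, edgeR called 0 of the 8. With library totals alone the log2 fold changes of Apaf1, Casp9, Casp2 and Casp6 were 0.082, 0.060, 0.048 and 0.11.

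Stretches upstream of a RefSeq transcription start of Xiap, Apaf1 and Casp9, the 3 genes with the smallest p, and of Cycs, which had nearly no change, are shown so that they can be read side by side. RefSeq windows of 250 bases before the start were held for 8 of 8 genes, and the stretch of each window outside every protein-coding exon is printed 5′ to 3′ (GRCm38.p6). Xiap had 3 such windows at different starts, and only the first is shown. It lies within the span of the gene given below, so it is not the only possible Xiap promoter. The printed stretch stops where a protein-coding exon begins, so it may be intron of a longer Xiap transcript. Whether it acts as a promoter was not tested. Capitals mark the NRF1 core CGCATGCG and the GC box GGGCGG, either strand; these motifs were chosen after the windows were read.
Xiap, chrX:42068148-42068356, plus strand: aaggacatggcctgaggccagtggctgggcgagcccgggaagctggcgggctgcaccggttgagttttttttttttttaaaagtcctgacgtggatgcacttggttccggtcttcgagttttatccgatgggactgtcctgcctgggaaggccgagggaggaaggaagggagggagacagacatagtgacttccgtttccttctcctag
Apaf1, chr10:91082771-91082939, minus strand: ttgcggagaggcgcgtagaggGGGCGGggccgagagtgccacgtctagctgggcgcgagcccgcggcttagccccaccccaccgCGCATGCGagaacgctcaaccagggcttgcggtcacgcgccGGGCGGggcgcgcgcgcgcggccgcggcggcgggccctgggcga
Casp9, chr4:141793362-141793611, plus strand: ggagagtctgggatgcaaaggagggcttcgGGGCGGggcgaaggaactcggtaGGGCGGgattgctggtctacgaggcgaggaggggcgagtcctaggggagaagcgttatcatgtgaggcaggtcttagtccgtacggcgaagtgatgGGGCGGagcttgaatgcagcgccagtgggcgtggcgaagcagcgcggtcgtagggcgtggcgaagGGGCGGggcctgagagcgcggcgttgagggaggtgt
Cycs, chr6:50566570-50566819, minus strand: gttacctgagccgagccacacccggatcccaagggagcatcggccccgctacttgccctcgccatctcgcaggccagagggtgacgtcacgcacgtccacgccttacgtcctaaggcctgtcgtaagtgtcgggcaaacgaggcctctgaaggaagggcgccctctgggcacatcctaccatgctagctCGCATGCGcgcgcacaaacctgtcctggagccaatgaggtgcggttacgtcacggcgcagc

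NRF1 is a transcription factor of nuclear genes for mitochondrial proteins. Its core was found in the windows of 2 of the 8 genes, Apaf1 and Cycs, and in 1.55% of 32851 RefSeq windows. Those 2 genes had log2 fold changes of 0.23 and -0.035. Neither was called, and whether their responses differ is not settled, since the ratio of Cycs to Apaf1 overlapped between the groups. The GC box was in 6 of the 8 whole windows, against 32.7% of all windows, and 4 copies stood in that of Casp9. Xiap was among the 6, but the copy in its first window, at -30 from the start, lies in the part not printed above. CCAAT was in 4 of the 8 and in 33.8% of all windows. The STAT element TTCNNNGAA was in the windows of 0 of the 8 and in 7.02% of all windows. These are matches of letters in short windows and say nothing of whether a factor was bound.

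Xiap lies on the X chromosome (mm10, chrX:42059679-42109656, plus strand). Its normalized counts, reads scaled for library size and composition, were 3014, 2653 and 2993 in Sham replicates 1, 2 and 3 and 3943, 3727 and 3673 in the EV-treated cultures. Every EV-treated culture lay above every sham-treated culture. The mean rose from 2887 ± 202 to 3781 ± 143 (SD, n = 3 each), a log2 fold change of 0.39 (SE 0.0706, adjusted p = 0.0018). Only 2.41% of the 31-base words of its transcripts occur in other genes. The call was kept in 11 of the 13 alternative analyses. It was lost without EV replicate 1 (log2 fold change 0.37, adjusted p = 0.0103) and with scaling by library totals alone (0.24, adjusted p = 0.0206), which moved the median of all genes from -0.014 to -0.16. Relative to that median Xiap was higher by 0.40. An exact permutation test of this single gene, two-sided, gave p = 0.1, the smallest that 3 against 3 cultures allow. The gene whose level across the 6 cultures was most like that of Xiap was Creb3l2, a membrane-bound transcription factor of the secretory pathway (Pearson's r = 0.999 of log2 CPM, 6 samples). Of all genes, 4.99% had an r over 0.95 with Xiap; the points share the 2 groups and the same 6 libraries.

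Apaf1, the scaffold of the apoptosome (chr10:90989311-91082770, minus strand), was the most precisely measured of the 8. It had 4731, 4698 and 4999 normalized counts in Sham replicates 1, 2 and 3, and 5759, 5564 and 5600 with EVs. The groups did not overlap, and the coefficient of variation was 3.43% in Sham and 1.85% in EV-treated cultures. Apaf1 was higher on average, 4809 ± 165 against 5641 ± 104 (SD, n = 3 each), with a log2 fold change of 0.23 (SE 0.0568) and an adjusted p of 0.0101 in edgeR. That p lay just outside the threshold: the gene was called by DESeq2 (adjusted p = 0.000577) and limma (adjusted p = 0.00777) but by none of the 6 leave-out fits, in which the adjusted p ran from 0.0118 to 0.0461. 

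Casp9 (chr4:141793612-141815976, plus strand) had 1405, 1441 and 1301 normalized counts in the sham-treated and 1619, 1563 and 1612 in the EV-treated cultures. All 3 EV-treated cultures were above all 3 sham-treated ones. The log2 fold change was 0.21 (SE 0.0719, adjusted p = 0.0456). Casp9 exons overlap those of Cela2a and Ctrc on the other strand; the counting is not stated to use strand, and 1.30% of the 31-base words of Casp9 transcripts occur in other genes.

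Casp2 (chr6:42264985-42282508, plus strand) had 1068, 1009 and 1086 normalized counts in Sham and 1134, 1269 and 1222 with EVs. Its groups were also separate, with a log2 fold change of 0.20 (SE 0.0811, adjusted p = 0.0873). Casp6 (chr3:129901425-129914103, plus strand), at 294.6, 261.0 and 313.5 against 354.7, 368.6 and 314.2, was separated only by the small gap between Sham replicate 3 and EV replicate 3. Its log2 fold change was 0.25 (SE 0.147, adjusted p = 0.214). In all, 5 of the 8 genes had groups that did not overlap, each higher with EVs, while 49.6% of all genes tested had such groups in either direction.

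Casp8 (chr1:58795374-58847503, plus strand) had 1585, 1700 and 1434 normalized counts in Sham and 1769, 1721 and 1689 with EVs. The sham-treated cultures spread widely, and Sham replicate 2 lay above EV replicate 3. The log2 fold change was 0.13 (SE 0.0783, adjusted p = 0.219), and it was -0.014 with scaling by library totals alone (adjusted p = 0.908). Without Sham replicate 3 it was 0.081 (adjusted p = 0.430). Gm20257 shares 8.02% of the Casp8 words.

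**Figure D1:**
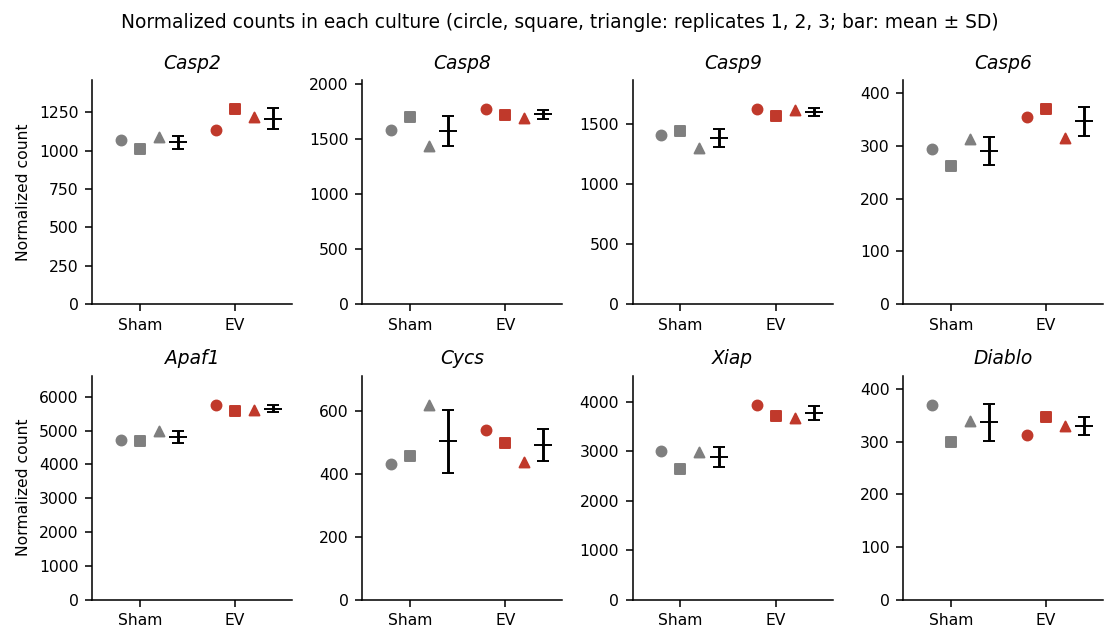
Normalized counts of the 8 genes in each culture, with Sham in grey and EV in red and the vertical axes starting at 0. Black bars give the mean and SD of 3 cultures; the groups are separate for Casp2, Casp6, Casp9, Apaf1 and Xiap and overlap for Casp8, Cycs and Diablo.

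The mitochondrial factors had no such separation. Cycs (chr6:50562563-50566538, minus strand) varied most among the sham-treated cultures, at 431.6, 457.1 and 618.5 normalized counts, a coefficient of variation of 20.2%, and stood at 537.5, 496.3 and 436.1 with EVs. Sham replicate 3 was above every EV-treated culture and Sham replicate 1 below all of them. The log2 fold change was -0.035 (SE 0.160, adjusted p = 0.890). Without Sham replicate 3 it became 0.15 (adjusted p = 0.438), so the direction rested on that library, and leaving out EV replicate 3 turned it as well (0.049, adjusted p = 0.884). Of the 31-base words in Cycs transcripts, 29.4% occur in other genes, 26.2% in Gm10053 alone, whose counts of 132 to 225 per library (log2 fold change -0.20, adjusted p = 0.624) cannot be fully told apart from those of Cycs.

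Diablo (chr5:123509765-123524176, minus strand) had 370, 300 and 340 normalized counts in Sham and 313, 348 and 330 with EVs, which lay inside the sham range. Its log2 fold change was -0.030 (SE 0.143, adjusted p = 0.895). It turned to 0.051 without Sham replicate 1 (adjusted p = 0.814) and 0.015 without EV replicate 1 (adjusted p = 0.964). Its value is uncertain, because 39.6% of its 31-base words occur in other genes and its exons overlap Gm49027 on the same strand and B3gnt4 and AC157931.1 on the other.

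**Figure D2:**
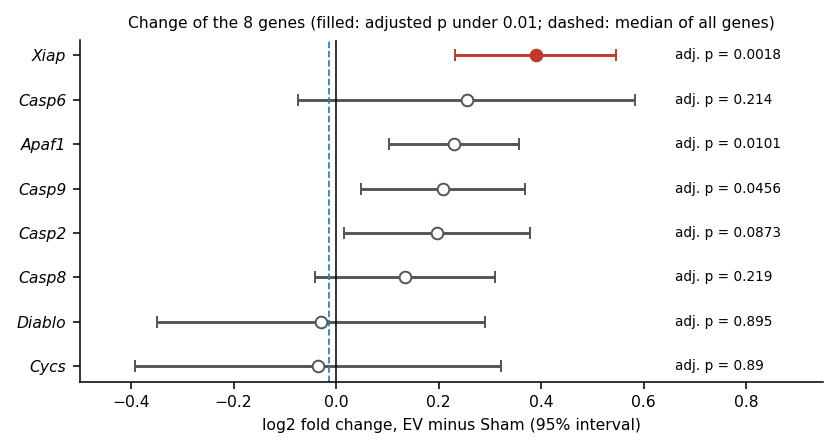
Log2 fold change of each gene, EV minus Sham, with its 95% interval from edgeR and the adjusted p over all genes tested. The filled point is Xiap at 0.39, the open points were not called, and the dashed line is the median of all genes at -0.014.

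Because several of these proteins act by binding each other, their transcripts were also compared as ratios within each culture, which do not depend on library scaling. Diablo to Xiap was 0.123, 0.113 and 0.114 in Sham replicates 1, 2 and 3 and 0.0793, 0.0934 and 0.0898 with EVs. All EV-treated cultures were below all sham-treated ones, by 0.42 on the log2 scale (exact permutation test, two-sided, p = 0.1, adjusted p = 0.167 over 5 ratios). Apaf1 to Xiap was also lower without overlap, 1.57, 1.77 and 1.67 against 1.46, 1.49 and 1.52, by 0.16 on the log2 scale (exact permutation p = 0.1, adjusted p = 0.167).

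Casp9 to Xiap ran from 0.435 to 0.543 in Sham and from 0.411 to 0.439 with EVs, and Cycs to Apaf1 from 0.0912 to 0.124 and from 0.0779 to 0.0933. Both ratios overlapped between groups (exact permutation p = 0.2 for each, adjusted p = 0.2). Casp9 to Xiap differed by -0.18 on the log2 scale and by -0.091 without Sham replicate 2, and Cycs to Apaf1 by -0.25 and by -0.12 without Sham replicate 3. Casp8 to Cflar, the caspase over its catalytically inactive homologue c-FLIP, which restrains it, was 0.278, 0.302 and 0.251 in Sham and 0.325, 0.330 and 0.339 with EVs. It was higher in every EV-treated culture, by 0.26 on the log2 scale (exact permutation p = 0.1, adjusted p = 0.167). The Diablo ratio carries the uncertainty of the Diablo counts given above. None of the 5 could have gone below 0.1 with 3 cultures a group.

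**Figure D3:**
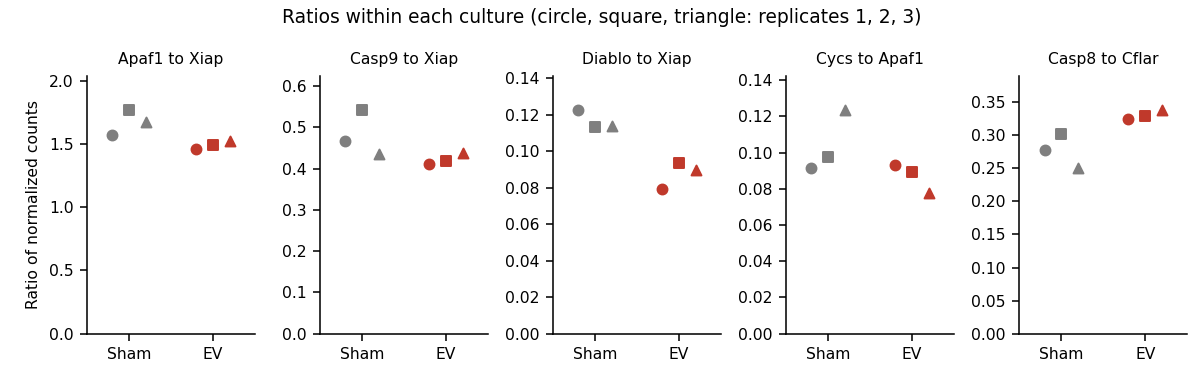
Ratios of normalized counts within each culture, vertical axes from 0, circles, squares and triangles marking replicates 1, 2 and 3. Diablo to Xiap and Apaf1 to Xiap are lower and Casp8 to Cflar is higher in every EV-treated culture, and the other 2 ratios overlap.

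Levels were compared between genes only after division by length. Per kilobase of the longest coding transcript, sham-treated eosinophils had 731 ± 25.1 normalized counts for Apaf1, 608 ± 51.6 for Casp8, 422 ± 29.6 for Xiap and 355 ± 18.6 for Casp9 (SD, n = 3). Casp2 followed at 299 ± 11.5, then Casp6 at 199 ± 18.2, Cycs at 161 ± 32.4 and Diablo at 130 ± 13.6. Casp6 overlapped with Cycs and Cycs with Diablo between the sham-treated cultures, and the other neighbours did not. The order was the same with EVs, where no neighbours overlapped. It depended on the length used: per kilobase of coding sequence Xiap (1940 ± 136) and Cycs (1595 ± 322) came first in Sham, since the Cycs coding sequence has 315 bases of a 3123-base transcript.

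Other genes of the pathway were taken from lists. Of all 13498 genes tested, edgeR called 12.1% higher and 11.6% lower. The list counts below were not tested against these shares. Of the 2 inflammatory caspases tested, with a median of -0.22, 0 were called by edgeR or limma and 1 was lower by DESeq2, at an unadjusted edgeR p under 0.05, and in edgeR with upper quartile scaling or library totals alone. Casp1, which matures IL-1β, was at 680 ± 107 in Sham and 477 ± 8.20 with EVs (log2 fold change -0.51, adjusted p = 0.0131; 0.00155 without Sham replicate 1, 0.00778 with upper quartile scaling and 0.00365 with library totals alone). Other settings moved it away from the threshold. The edgeR adjusted p was 0.0161 with no filter on low counts, and 0.0347 to 0.0582 when any culture other than Sham replicate 1 was left out.

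Upstream of the apoptosome, 2 of the 4 genes of the BAX/BAK pore and BID were called higher and 0 lower by edgeR, DESeq2 and limma alike, with a median log2 fold change of 0.22. Bax was not called (edgeR log2 fold change -0.064, adjusted p = 0.495). Bok, with means of only 16.9 normalized counts in Sham and 7.11 with EVs, was not called either (-1.24, adjusted p = 0.274). Bid, whose protein is cut by caspase-8 and carries the death receptor signal to mitochondria, rose from 845 ± 92.5 to 1372 ± 33.3 (log2 fold change 0.70, adjusted p = 0.00025), and Bak1, a pore protein, from 2926 ± 317 to 4159 ± 224 (0.51, adjusted p = 0.00106). Of their 31-base words, 16.9% and 20.4% occur in a neighbouring gene. Among 16 apoptosome regulators and mitochondrial factors, 2 were called higher and 2 lower, with a median of -0.047. Aifm3, a relative of apoptosis-inducing factor, had 0 counts in all 3 sham-treated cultures and 108, 153 and 163 with EVs, at least 38.0-fold higher against a floor of 3 counts per library. Prelid1, a lipid carrier between mitochondrial membranes, rose by 0.61 on the log2 scale (adjusted p = 1.69e-05) and Htra2, a mitochondrial protease that antagonizes XIAP, fell by 0.89 (adjusted p = 0.000872), with 59.6% and 37.6% of their words shared with other genes.

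Around Xiap, 0 of 13 tested genes for other inhibitor of apoptosis (IAP) proteins and IAP antagonists were called higher by edgeR and limma, 1 was higher by DESeq2 and 1 at an unadjusted edgeR p under 0.05, and 4 were lower, Naip1, Htra2, Naip2 and Naip6. The median of this list, which mixes inhibitors with their antagonists, was -0.20, against 0.39 for Xiap. The IAP genes Birc2, Birc3, Birc5 and Birc6 were not called by edgeR, at log2 fold changes of 0.16, -0.11, -0.20 and 0.19. Naip1 was at 214 ± 26.1 in Sham and 93.8 ± 21.7 with EVs (log2 fold change -1.19, adjusted p = 0.00302) and Naip2 at 6823 ± 360 and 5059 ± 172 (-0.43, adjusted p = 0.000408). The NAIP proteins are best known as inflammasome sensors of bacterial proteins. Naip1 and Naip2 share 44.3% and 32.8% of their words with other genes, mostly each other's family, and Naip1 lost its call without Sham replicate 3, EV replicate 2 or EV replicate 3 (adjusted p = 0.0142 to 0.0159). The count of 4 lower became 2 without EV replicate 2 or EV replicate 3 and 7 with scaling by library totals alone.

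In the death receptor complex of caspase-8, 3 of 15 genes were called higher and 1 lower, with a median of 0.18. Tnfrsf1a, the TNF receptor, fell from 1206 ± 266 to 561 ± 41.8 (log2 fold change -1.10, adjusted p = 0.000324). Casp8ap2, which binds caspase-8 in vitro, rose by 0.46 (adjusted p = 0.00252) and Cyld, a deubiquitinase of the receptor complex, by 0.39 (adjusted p = 0.00125). Casp8ap2 lost its call without any single EV-treated culture (adjusted p = 0.0101 to 0.0164), the count of 3 higher then being 1, and scaling by library totals alone left 0 higher and 2 lower. Fadd, the adaptor that recruits caspase-8, and Cflar did not pass. Fadd was at -0.22 on the log2 scale (adjusted p = 0.301; -0.073 without Sham replicate 3) and Cflar at -0.12 (adjusted p = 0.132). With library totals alone Cflar passed, at -0.27 (adjusted p = 0.00533).

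The list for the PIDDosome of caspase-2 has 6 genes, with Casp2 itself and related genes that are not parts of the platform. Of these 6, 2 were called higher and 0 lower by edgeR, DESeq2 and limma, with a median of 0.24. At an unadjusted edgeR p under 0.05, which at least 5580 of the 13498 genes pass, 4 were higher, Casp2 among them, and 0 lower. Cradd, the adaptor RAIDD that binds caspase-2, rose from 340 ± 54.4 to 565 ± 73.2 (log2 fold change 0.73, adjusted p = 0.00521), and Mdm2, a caspase-2 substrate and inhibitor of p53, rose by 0.28 (adjusted p = 0.00322). These calls were among the least stable. Cradd lost its call without Sham replicate 2, Sham replicate 3, EV replicate 1 or EV replicate 3 (adjusted p = 0.0113 to 0.0330), and Mdm2 without any culture other than Sham replicate 1 (adjusted p = 0.0110 to 0.0219). The count of 2 became 0 without Sham replicate 2, Sham replicate 3, EV replicate 1 or EV replicate 3, 1 without EV replicate 2 or with upper quartile scaling, and 0 with scaling by library totals alone.

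Downstream, 3 of 18 tested caspase substrates of the execution phase were called higher, Stk4, Pak2 and Top2a, and 3 lower, Panx1, Stk3 and Parp1, with a median of 0.19. Panx1, a channel opened by caspase cleavage, fell from 852 ± 209 to 383 ± 34.2 (log2 fold change -1.15, adjusted p = 0.000659), and Parp1, a DNA repair enzyme, fell by 0.83 (adjusted p = 0.00267). Stk3, a kinase cut by caspases, fell by 1.06 (adjusted p = 0.00969; 0.0119 in limma). Leaving out Sham replicate 2, Sham replicate 3, EV replicate 2 or EV replicate 3 cost both Parp1 (adjusted p = 0.0114 to 0.0182) and Stk3 their calls, Stk3 lost its call without EV replicate 1 as well (0.0282 to 0.0445 over the 5 fits), and the count of 3 lower was then 1 in the first 4 of these. The count of 3 higher was 5 in DESeq2 and 0 with scaling by library totals alone. Of 19 respiratory chain partners of cytochrome c, 3 were called higher and 1 lower (5 and 2 in DESeq2, 3 and 4 with library totals alone), with a median of 0.095 beside -0.035 for Cycs itself. Cox6c, Cox8a and Cox5a, subunits of the oxidase that cytochrome c feeds, rose by 0.79 (adjusted p = 0.000151), 0.58 (adjusted p = 7.01e-05) and 0.50 (adjusted p = 0.00117), though 11.9% of the words of Cox6c and 13.8% of those of Cox5a occur in other genes.

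**Figure D4:**
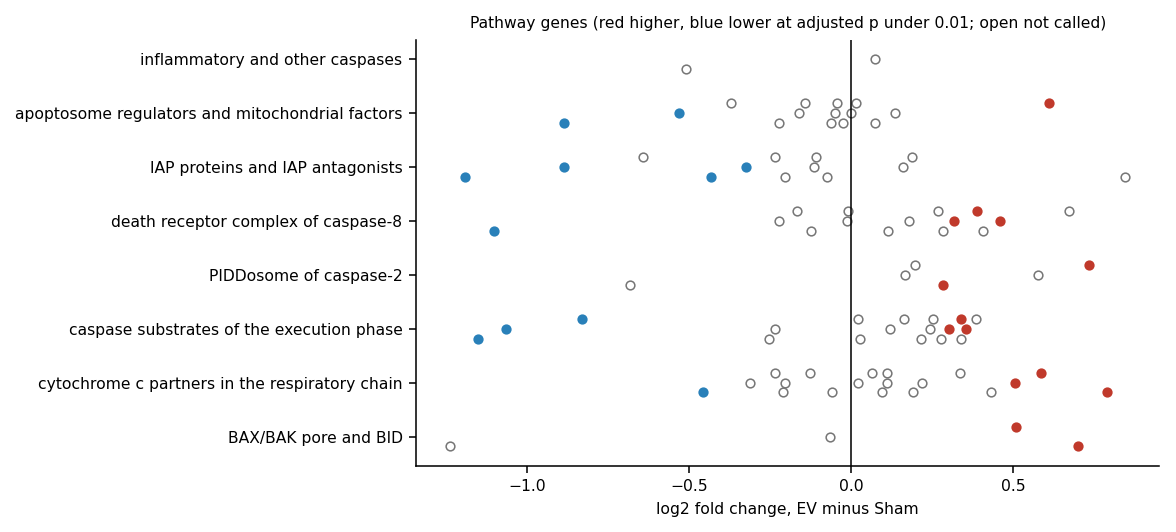
Log2 fold change, EV minus Sham, of every tested gene of 8 pathway lists (Aifm3, at 0 in Sham, is left out). Filled red points were called higher and filled blue points lower at an adjusted p under 0.01; the IAP list has 4 filled points, all lower, and the list of the BAX/BAK pore and BID has 2, both higher.

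These are bulk cultures, in which fewer cells of a type and less RNA per cell cannot be told apart. Eosinophil markers were abundant in all 6 libraries, with a summed level of 872996 to 1104780 normalized counts in Sham and 1235170 to 1393290 with EVs, and 6 of 8 were higher and 0 lower (edgeR). Of 8 macrophage markers, 7 were lower and 1, Adgre1, higher with EVs, with a median log2 fold change of -2.52. Their sums were 44298 to 60111 in Sham and 39469 to 43519 with EVs, of which Adgre1 alone held 21095 to 21678 and 32085 to 33532. Of 8 tested neutrophil markers 5 were lower and 1 higher (sums of 19369 to 23036 against 15429 to 19141), and of 6 tested mast cell and basophil markers 4 were higher and 0 lower (4101 to 5233 against 9890 to 11709). Of 4 tested stromal markers 1 was lower (10141 to 20277 against 475 to 6096, EV replicate 1 the highest of its group), and of 2 tested T-cell markers 1 was lower. T-cell markers summed to 336 to 846 in Sham and 64.9 to 123 with EVs, most of it Cd28 in Sham, with Cd3g at 0 to 6.00. The part of these other cells in the changes of Xiap and the other genes was not tested. Libraries held 23697620 to 37874426 estimated counts, and each of the 8 genes had at least 213 reads in every library.

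**Figure D5:**
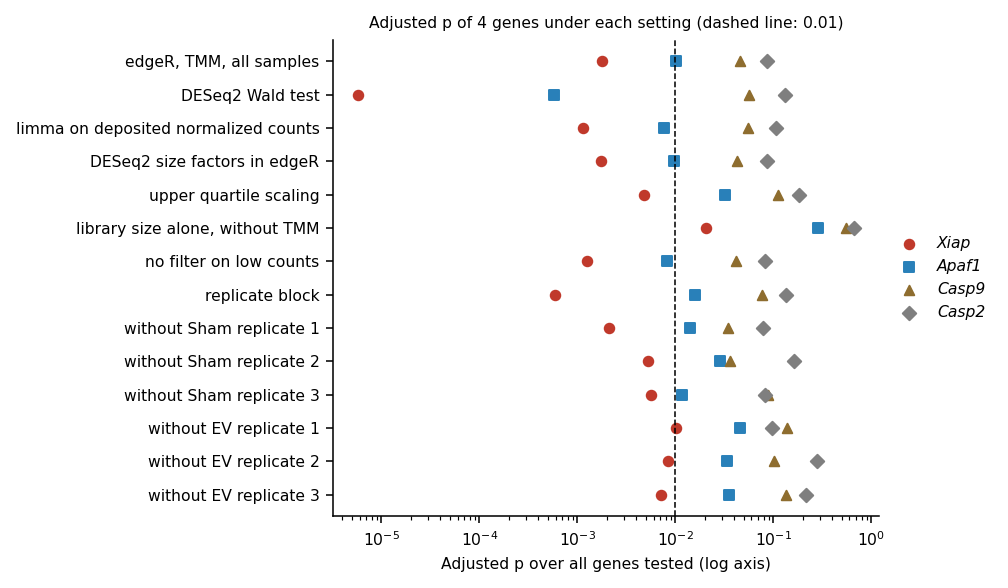
Adjusted p over all genes tested, on a log axis, for Xiap, Apaf1, Casp9 and Casp2 under edgeR with all samples and 13 alternatives. Xiap lies left of the dashed line at 0.01 in all but 2 of the rows, at 0.0206 without TMM and 0.0103 without EV replicate 1, and Apaf1 lies close to the line in most.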

How the data were processed

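RNA was sequenced from 3 sham-treated and 3 EV-treated cultures. The authors checked reads with FastQC, trimmed adapters with cutadapt and quantified with Salmon, and their processing notes name the build mm10; versions, annotation and strandedness are not given in the sources used here. Estimated counts of 16254 genes were deposited, and were rounded here to whole numbers. A table of normalized counts, a signal that the authors scaled per sample, was deposited as well. Their table of fold changes and p-values was not used.

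Counts were filtered with filterByExpr, scaled by TMM and tested with edgeR 4.0.16 (quasi-likelihood test, Benjamini-Hochberg adjustment over 13498 genes, threshold 0.01) in R 4.3.3. DESeq2 1.42.0 and limma 3.58.1 (log2 of the deposited normalized counts, which carry an added count of 1, plus a pseudocount of 1) were alternatives, as were other scalings, no filter, a replicate block, a threshold of 0.05 and leaving out each culture. Ratios were tested by exact permutation. Scripts were tested on simulated data. Positions and shared words came from GENCODE M21.

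The 8 genes and the lists were chosen with earlier results of these data known. Named genes were the 8, up to 3 called genes per list with the largest change (the smallest adjusted p where none was called), the gene most like each called gene, Cflar, Fadd and Bid, and the genes sharing most sequence with the 8. Naip6, Birc2, Birc3, Birc5, Birc6, Bax, Bok, Stk4, Pak2, Top2a and the marker genes were named after their values were seen. List genes with too few reads were not analysed here. The list of initiator and executioner caspases is not reported here. Libraries held 23697620 to 37874426 counts; counting error and the spread between cultures were not separated.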

Additional observations from a re-analysis of the deposited data

How the results depend on the processing

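Xiap was higher under every alternative run, with log2 fold changes of 0.332 to 0.428 when each culture was left out; it was not called with scaling by library totals alone (0.241) or without EV replicate 1 (0.365, adjusted p = 0.0103). Apaf1 was called by DESeq2 (0.236), with DESeq2's size factors in edgeR (0.234), without the filter (0.246), by limma (0.227) and at the 0.05 threshold (0.230), which also took in Casp9 (0.209). Casp8 turned to -0.0145 with library totals alone. Leaving out cultures moved Cycs between -0.129 and 0.150 and Diablo between -0.106 and 0.0508, across 0 in each case. The number of the 8 genes called, all of them higher, was 2 with DESeq2, DESeq2's size factors, no filter and limma, 3 at the 0.05 threshold, 0 with library totals alone, and 0 to 1 when cultures were left out. Over all genes, 3204 were called, 4840 at the 0.05 threshold and 2089 to 3531 with 1 culture left out, the fewest without EV replicate 3.

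Replicate numbers are shared by the groups, but the labels do not say whether same-numbered cultures were paired. The deviations of same-numbered cultures correlated at 0.117, 0.0846 and 0.0371, and only replicates 1 and 2 correlated best with their own number. With 3 cultures a group, such correlations cannot settle whether the cultures were paired. The main test did not take the numbers as pairs. With a replicate block 3575 genes were called, and of the 8 still Xiap alone (log2 fold change 0.391, adjusted p = 0.000596), Apaf1 having an adjusted p of 0.0160. The block also took in Casp1 (adjusted p = 0.00707) and moved the respiratory chain list to 5 higher and 2 lower and the higher caspase substrates to 5. All 5 ratios kept their direction with each culture left out; Casp9 to Xiap ran from -0.251 to -0.0906 and Cycs to Apaf1 from -0.342 to -0.123 on the log2 scale. The 8 genes had at least 213 counts in every library, and counting error was not separated from the spread between cultures; groups of 3 do not allow an exact p under 0.1.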
